A study of Mus musculus with 2 samples.

Results

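The Myc and Max network was taken as 10 genes, Myc, Mycn, Mycl, Max, Mlx, Mxi1, Mnt, Mga, Mxd3 and Mxd4, and every row of the expression table that carries one of these gene names was kept. This gave 17 records of 37178, for 10 genes of 29830 gene names, with 10 protein-coding records and 7 lncRNA records. An lncRNA record here is a noncoding transcript annotated inside the same coding gene, not a separate lncRNA gene, so both records of a gene can share reads. All 17 records passed the minimum of 1 TPM (an RNA level that accounts for transcript length and sequencing depth) and all 17 held reads that could be assigned to an allele. F123 is a male hybrid mouse embryonic stem cell (mESC) line from a cross of S129/Jae and Cast mice, and its alleles are called CAST and S129. No treatment and no engineered allele is named for these cells, which were maintained on inactivated embryonic fibroblast feeders, and were passaged without feeders at a raised dose of leukemia inhibitory factor before total RNA was collected. The 2 replicates were pooled by the authors in the deposited table, so no spread between them could be computed, and F123 is 1 line, so allele and parent of origin cannot be told apart.

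MYC, MYCN and MYCL are basic helix-loop-helix leucine zipper proteins that bind DNA as heterodimers with MAX, mostly at the E-box, and raise the transcription of genes for growth and proliferation. MXD proteins, MXI1 and MNT compete for MAX and bring the SIN3 histone deacetylase corepressor to E-boxes, MGA pairs with MAX inside a noncanonical Polycomb complex, and MLX is a MAX-like partner for the glucose-sensing MondoA and ChREBP proteins and for some MXD proteins. In mESCs, Myc and Mycn are known for supporting self-renewal, and Mga and Max for keeping germ cell genes silent.

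The E-box is the site these proteins share, so promoters of network genes that hold one are shown first. In RefSeq promoters on GRCm38.p6 (250 bases before to 50 after the annotated start), 9 of the 10 genes had an entry, and Myc did not. The palindrome CACGTG, which reads the same on both strands, was present in the promoters of 4 genes (Max, Mlx, Mnt and Mxd4), and in 7.15% of all 32851 mouse promoters. It began 3 bases before the start of Max, 40 before that of Mlx and 219 before that of Mxd4, and ended 118 bases before that of Mnt. The windows below lie at chr12:76962234-76962263 on the minus strand (Max), chr11:101087238-101087267 on the plus strand (Mlx), chr11:74830789-74830818 on the plus strand (Mnt) and chr5:34187912-34187941 on the minus strand (Mxd4), each 5′ to 3′ with the E-box in capitals.
Max: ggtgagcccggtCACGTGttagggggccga
Mlx: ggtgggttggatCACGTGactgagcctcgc
Mnt: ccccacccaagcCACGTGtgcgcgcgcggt
Mxd4: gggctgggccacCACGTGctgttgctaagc
A match of letters says nothing of binding in these cells.

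Mycn was the network gene whose alleles differed most between its records, so its upstream sequence and a stretch of its lncRNA record are shown as well. TTTGGCGC or TTTCGCGC, letters of the site of E2F cell cycle factors, was searched on both strands and occurred in 0.813% of all promoters. Of the 9 network genes with a promoter entry, Mycn alone held it, at 3 places that began 183, 179 and 168 bases before the RefSeq start, the first and second of which overlap. The bases upstream of the gene come from RefSeq (chr12:12941915-12942086, minus strand, matches in capitals), and the stretch of the lncRNA record comes from the GENCODE M21 transcripts (chr12:12941375-12941434, minus strand), where it is part of the first intron of the longer coding transcript Mycn-201.
Mycn, upstream: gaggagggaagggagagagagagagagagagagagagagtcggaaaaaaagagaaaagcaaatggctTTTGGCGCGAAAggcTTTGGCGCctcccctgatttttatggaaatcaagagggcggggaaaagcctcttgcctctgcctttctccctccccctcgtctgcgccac
Mycn, lncRNA record: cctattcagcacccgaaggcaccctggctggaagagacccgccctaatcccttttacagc
The positions of the individual variants were not used here, so no base of either stretch is assigned to an allele.

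At the level of RNA, Mycn was the highest member. Its protein-coding record stood at 122.7 TPM, at percentile 97.5 of all expressed records, against 37.4 TPM for Myc and 10.7 TPM for Mycl. The level of Mycn was 3.28 times that of Myc and 11.4 times that of Mycl. Together these 3 MYC genes made up 63.5% of the 269 TPM summed over the 10 protein-coding records, with Mycn alone at 45.6%. Max, the obligate partner of the MYC proteins, reached 22.0 TPM, and the level of Mycn was 5.59 times that of Max. These levels and ratios count exons and introns. Over exons alone Mycn stood at 143.3 TPM and Max at 19.5 TPM, which sets them further apart. RNA levels do not give protein levels, and 1 pooled value per record leaves the order of close neighbours untested.

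Among the antagonists, Mxd3, the MXD member known for expression in S phase, was highest at 26.6 TPM and stood above Max. Mga followed at 19.2 TPM and Mnt, the broadly expressed antagonist, at 9.69 TPM. Mxi1 was at 2.93 TPM and Mxd4 at 1.52 TPM, which is percentile 9.71 of the expressed records, and Mxd3 was 17.5 times as high as Mxd4. Mxd3, Mxd4, Mxi1 and Mnt together gave 15.2% of the summed level, Mga 7.15%, Max 8.16% and Mlx, at 16.1 TPM, 6.0%. For Mycl and Mxd4 the lncRNA record was higher than the protein-coding one, with 18.3 TPM for Mycl and 7.18 TPM for Mxd4. A level of a record covers exons and introns of 1 transcript, so records of 1 gene are not independent. Over exons alone the protein-coding record of Mxd3 stood at 30.8 TPM and that of Mxd4 at 1.22 TPM.

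**Figure D1:**
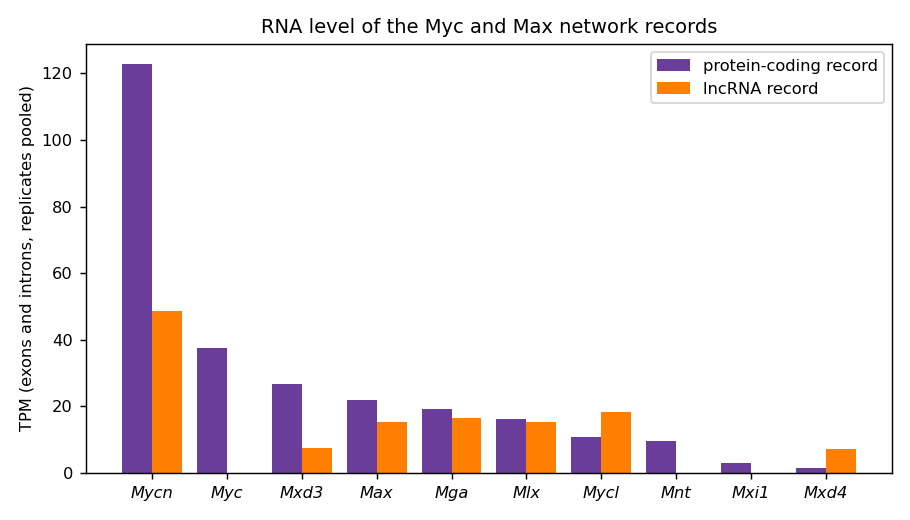
RNA level (TPM over exons and introns, replicates pooled, linear axis from 0) of the protein-coding and lncRNA records of the 10 network genes, in falling order of the protein-coding record. Mycn stood at 122.7 TPM, above Myc at 37.4 TPM and Mxd3 at 26.6 TPM, and Mxi1, at 2.93 TPM, and Mxd4, at 1.52 TPM, were the lowest; Myc, Mnt and Mxi1 have no lncRNA record.

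Cell identity was checked with marker genes of pluripotent cells and of the feeders. All 10 mESC markers were expressed, from 12.1 TPM for Tfcp2l1 to 483 TPM for Utf1. Of 10 fibroblast markers, 4 reached 1 TPM, none was at 0, and the highest was Thy1, at 7.0 TPM in its lncRNA record. The protein-coding record of Thy1 stood at 3.06 TPM, below the protein-coding record of Pdgfra. How far feeder RNA adds to the values of network genes was not tested. Over all 18632 records with allelic reads, CAST held 50.4% of the reads, and the median record had 289 reads.

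To ask whether the network was expressed from both alleles, CAST and S129 reads of each record were compared with a two-sided exact binomial test, with Benjamini-Hochberg adjustment over all records with allelic reads. A record was called allele-specific (ASE) at an adjusted p of at most 0.05, a difference of at least 2-fold and a TPM of at least 1, and biallelic otherwise. Log2 fold changes are CAST over S129, and intervals and standard errors cover counting error only. Only 1 of the 17 network records was ASE, the lncRNA record of Mycn, which was higher on S129. In the whole table, 14.1% of the 15935 tested records were ASE, 8.33% toward CAST and 5.78% toward S129. Without a fold minimum, 7 of the 17 network records passed, 3 toward CAST and 4 toward S129, against 48.3% of all tested records (25.4% toward CAST and 22.9% toward S129). Near equality lay 12 of 17 network records (70.6%), between 40% and 60% CAST, against 67.4% of all tested records. With a spread beyond counting error set as a correlation of 0.01 between reads of a record, only the Mycn records among these 7 kept an adjusted beta-binomial p of at most 0.05, with p = 0.0105 for the protein-coding and p = 0.0227 for the lncRNA record. At a correlation of 0.05 none of the 17 records passed, with an adjusted beta-binomial p = 0.939 for the Mycn protein-coding record and p = 0.470 for the Mycn lncRNA record, whose ASE call was lost. The median absolute log2 fold change was 0.27 in the network and 0.36 over all tested records, while the median depth was 182 reads in the network and 397 reads over all tested records.

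**Figure D2:**
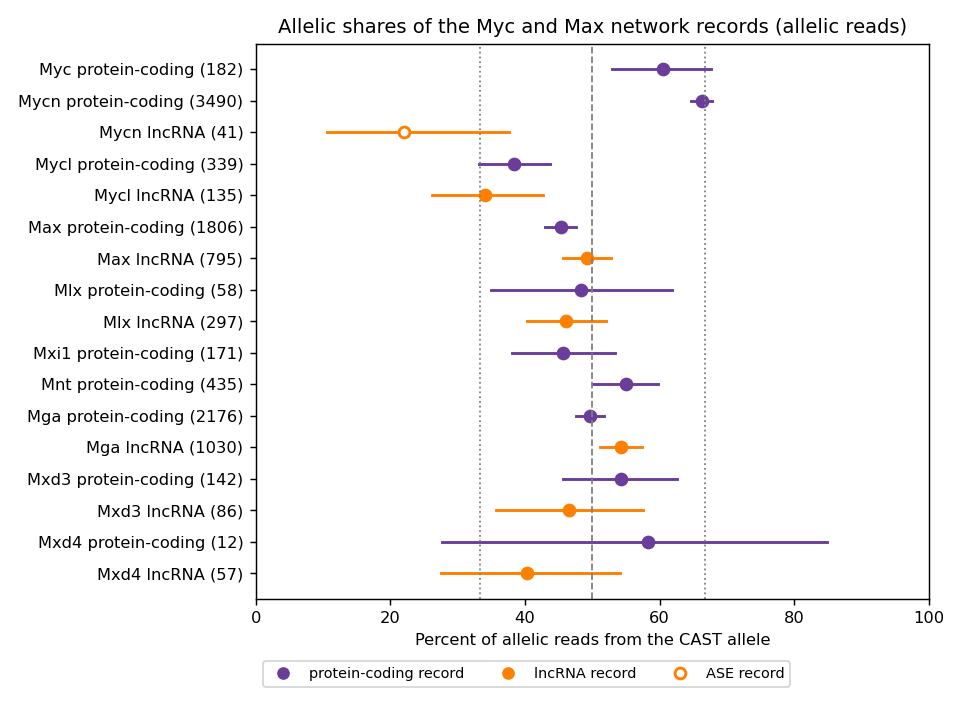
Percent of allelic reads from the CAST allele in each network record, with exact (Clopper-Pearson) 95% intervals from counting error alone and the number of allelic reads in parentheses. The dashed line marks equal shares and the dotted lines a 2-fold difference; the open point, the Mycn lncRNA record at 22.0%, is the ASE record.

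**Figure D3:**
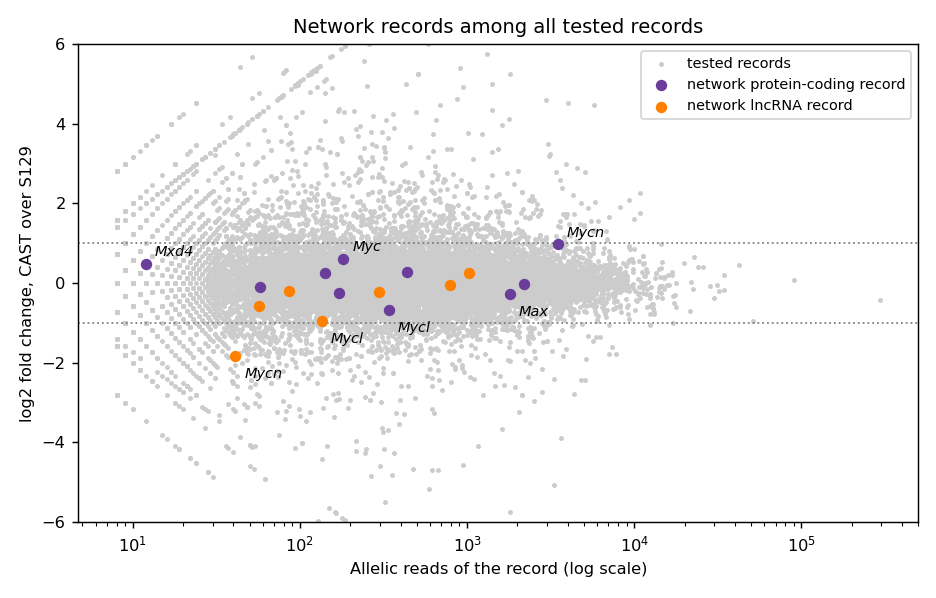
Log2 fold change (CAST over S129) against the number of allelic reads (log axis) for the 15935 tested records in grey and for the network records in color, with dotted lines at a 2-fold difference; 45 records beyond 6 on the log2 scale are outside the frame. The network records held from 12 to 3490 reads, and the Mycn lncRNA record lies beyond the lower dotted line.

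The MYC genes themselves did not share a side. Mycn favored CAST in its protein-coding record (chr12:12936096-12940616, minus strand), with 2311 CAST and 1179 S129 reads at 23 variants, 9 in exons and 14 in introns. The CAST share was 66.2% (95% interval 64.6 to 67.8), a log2 fold change of 0.97 (SE 0.05, adjusted binomial p = 2.08e-81). This is the lowest p in the network, and at a 1.96-fold difference the record still counted as biallelic, 47 CAST reads short of 2-fold. The 2-fold line, at 66.7% CAST, lies inside the interval of the record. Over the whole table, 306 tested records passed the p threshold with an absolute log2 fold change from 0.9 to 1.

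The lncRNA record of Mycn lies at chr12:12940944-12941825, 327 bases upstream of the protein-coding record and without overlap with it. It is transcript Mycn-203, typed as a processed transcript in GENCODE M21, whose first exon lies within the first exon of Mycn-201 and whose second exon, of 491 bases, lies within the first intron of that transcript. Reads over these exons can also come from spliced or unspliced RNA of Mycn-201, and their transcript of origin was not tested. This record had 9 CAST and 32 S129 reads at 3 exonic variants, or 22.0% CAST (10.6 to 37.6), a log2 fold change of −1.83 (SE 0.54, adjusted binomial p = 0.00135). Read depth differed between both records, at 13.7 reads per variant in the lncRNA record against 152 in the protein-coding record, while the levels were 48.5 TPM against 122.7 TPM. The methods state a minimum of 20 reads per variant, which the mean of this record does not reach, nor do those of the Max lncRNA record (16.6), Mxi1 (12.2) and the Mxd4 protein-coding record (12). With the reads of both records pooled, Mycn had 2320 CAST and 1211 S129 reads, 65.7% CAST.

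Myc (chr15:61987422-61990253, plus strand) leaned to CAST as well, with 110 CAST and 72 S129 reads at 3 variants, 60.4% CAST (52.9 to 67.6). Its log2 fold change was 0.61 (SE 0.22, adjusted binomial p = 0.0147), below the fold minimum. Pvt1, the lncRNA gene that begins 47.8 kb downstream of Myc, lay on the same side, with 4437 CAST and 3200 S129 reads at 462 variants, 58.1% CAST (57.0 to 59.2), and was also biallelic.

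Mycl, in contrast, favored S129 in both of its records. The protein-coding record (chr4:122996099-123002485, plus strand) had 130 CAST and 209 S129 reads at 6 exonic variants, 38.3% CAST (33.1 to 43.8), a log2 fold change of −0.68 (SE 0.16, adjusted binomial p = 8.05e-05). The lncRNA record, which lies inside it, had 46 CAST and 89 S129 reads at 2 variants, 34.1% CAST (26.1 to 42.7), with a fold of 1.93. Its interval includes the 2-fold line at 33.3%. Mycl and Mycn thus lay on opposite sides of equal shares in their coding records, with intervals that do not overlap.

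Max leaned slightly to S129. Its protein-coding record (chr12:76937274-76962201, minus strand) had 818 CAST and 988 S129 reads at 55 variants, 45.3% CAST (43.0 to 47.6), with a log2 fold change of −0.27 (SE 0.07, adjusted binomial p = 0.000246), whereas its lncRNA record had 391 CAST and 404 S129 reads and did not pass the test. Mlx showed no allelic difference at its depth, where its protein-coding record held 28 CAST and 30 S129 reads at 1 variant (48.3%, 35.0 to 61.8) and its lncRNA record 137 CAST and 160 S129 reads at 10 variants (46.1%, 40.4 to 52.0).

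None of the antagonists was ASE. Mnt (chr11:74830920-74845725, plus strand) had 239 CAST and 196 S129 reads at 19 variants, 54.9% CAST (50.1 to 59.7), and did not pass after adjustment (adjusted binomial p = 0.0869). Mxi1 (chr19:53329808-53371811, plus strand) had 78 CAST and 93 S129 reads, 45.6% CAST (37.99 to 53.4), all at 14 intronic variants. Gm10197 lies inside Mxi1 on the opposite strand, spans 201 bases and stood at 73.6 TPM with no variant of its own. In Mxd3, the protein-coding record held 77 CAST and 65 S129 reads (54.2%, 45.7 to 62.6), and the lncRNA record held 40 CAST and 46 S129 reads (46.5%, 35.7 to 57.6). The coding record of Mxd3 shares 105 bases with Prelid1 on the opposite strand, and whether its reads were counted by strand is not given in the sources used here.

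Mxd4 was the shallowest gene, whose protein-coding record held 7 CAST and 5 S129 reads at 1 variant (58.3%, 27.7 to 84.8). Its lncRNA record had 23 CAST and 34 S129 reads (40.4%, 27.6 to 54.2) and overlaps Gm42846 on the opposite strand over 1001 bases. At 12 reads the interval of the coding record contains both 2-fold lines, so neither equal shares nor a 2-fold difference could be told from the counts.

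Mga (chr2:119897305-119960794, plus strand) was nearly even, with 1080 CAST and 1096 S129 reads at 32 variants, 49.6% CAST (47.5 to 51.8), a log2 fold change of −0.02 (SE 0.06, adjusted binomial p = 0.849). In its lncRNA record, which covers the 5′ part of the gene, CAST held 559 and S129 471 reads at 10 variants, 54.3% (51.2 to 57.3), a log2 fold change of 0.25 (SE 0.09, adjusted binomial p = 0.0163). The genome reference carries the CAST base at most variants of Mga: the non-reference base was on S129 at 21 of the 32 variants (65.6%), against 11.1% of variants over all tested records. The part of this base composition in the value of Mga was not tested.

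Summed over the 10 protein-coding records, CAST held 4878 and S129 3933 reads, or 55.4% CAST. This sum rests on Mycn, since without it the other 9 records held 2567 CAST and 2754 S129 reads, or 48.2% CAST.

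Because the records of Mycn lay on opposite sides, the parts of a gene were compared wherever its protein-coding and lncRNA records were either apart or one inside the other, in which case the reads of the inner record were subtracted from those of the outer one. This comparison was chosen after the values were seen. With a two-sided Fisher's exact test and adjustment over 2675 such genes with at least 10 reads in each part, the parts differed in 31.2% of genes, and in 18.2% they differed and lay on opposite sides of equal shares. Of the 6 network genes that could be split, 2 differed, Mycn and Max. For Mycn, whose records lie apart, the share was 22.0% CAST in the lncRNA record and 66.2% in the protein-coding record. The difference was −44.3 points (adjusted Fisher's exact p = 1.35e-07), the absolute size of which ranked 40 among the 2675 genes. A normal test of the 2 shares was also run, with the variance raised for a correlation of 0.01 between reads of a part. It left an adjusted p of 0.000529 for Mycn and 0.784 for Max.

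For Max, the lncRNA part held 49.2% CAST (391 and 404 reads), and the rest held 42.2% (427 CAST and 584 S129 reads at 7 variants), with an adjusted Fisher's exact p of 0.0146. In Mxd3 the lncRNA part had 46.5% CAST and the rest 66.1%, the higher share from 37 CAST and 19 S129 reads at 1 variant, and the difference did not pass (adjusted Fisher's exact p = 0.0749). The parts of Mycl (34.1% and 41.2%), Mlx (48.3% and 45.6%) and Mxd4 (40.4% and 58.3%) had adjusted p values from 0.370 to 0.884. Mga could not be split exactly, since its lncRNA record begins 57 bases before the coding record. If no variant lies in those bases, the rest of Mga had 521 CAST and 625 S129 reads, or 45.5% CAST. In the whole table, 69 of the 543 ASE lncRNA records of genes with both records favored the allele opposite to that of their protein-coding record, as the Mycn lncRNA record did.

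**Figure D4:**
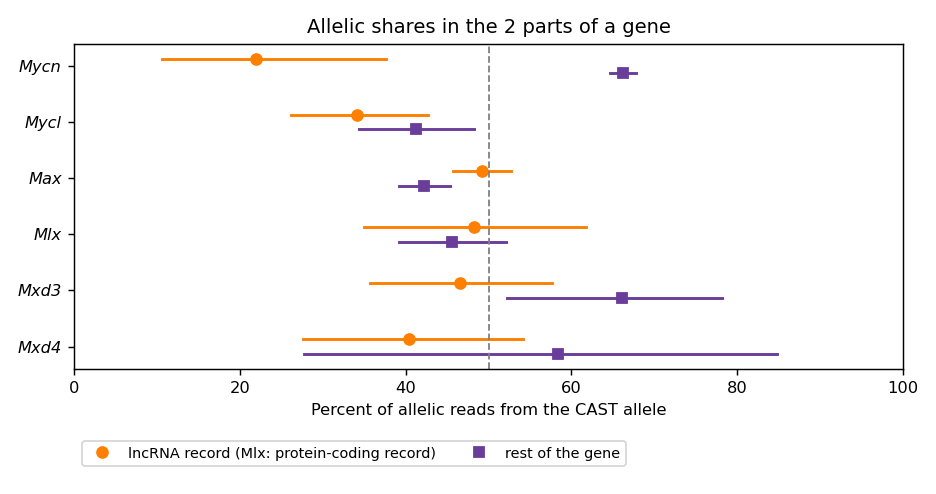
Percent of allelic reads from the CAST allele in the inner or separate record (circles) and in the rest of the gene (squares) for the 6 network genes that could be split, with exact 95% intervals from counting error alone. The intervals of Mycn, at 22.0% and 66.2%, are far apart, and those of Max, at 49.2% and 42.2%, do not overlap.

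The genes beside each member were examined to see whether a member and its surroundings favored the same allele, taking genes that reached 1 TPM and 20 allelic reads. The CAST side of Mycn was not shared by Ddx1, 275 kb away, the gene often amplified together with MYCN in human neuroblastoma. Ddx1 had 3122 CAST and 3429 S129 reads (47.7%, 46.4 to 48.9). Platr19, 142 kb away on the other side, had 13 CAST and 15 S129 reads. Its interval (27.5 to 66.1) is too wide to tell whether it shared the side of Mycn. Next to Mycl, Cap1, which encodes an actin regulator, had 95 CAST and 92 S129 reads, and Trit1, a tRNA modifying enzyme, had 596 CAST and 730 S129 reads in its lncRNA record (44.9%, 42.2 to 47.7). Fntb, a subunit of farnesyltransferase on the lower side of Max, favored S129 more than Max did, with 413 CAST and 716 S129 reads (36.6%, 33.8 to 39.5), and Fut8, far on the other side, had 96 CAST and 93 S129 reads. Coasy and Psmc3ip, each within 1 kb of Mlx, were at 49.5% and 48.0% CAST, close to the values of Mlx.

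Around the antagonists, ASE neighbours were found beside Mxi1, Mnt and Mga. Sgsm2, 3.54 kb from Mnt at the higher coordinate, was a CAST gene with 338 CAST and 164 S129 reads (67.3%), while Mettl16 on the other side was at 55.6%. Add3, below Mxi1, was called CAST on 17 CAST and 5 S129 reads at 1 variant, and Smndc1 above it had 176 CAST and 124 S129 reads (58.7%), while the interval of Mxi1 included equal shares. The neighbours of Mxd3, Rab24 and Lman2, were at 51.7% and 42.4% CAST, and those of Mxd4, Haus3 and Zfyve28, at 42.6% and 43.2%, all biallelic.

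Mga was biallelic in a region of mostly CAST ASE genes. Within 500 kb, 13 of 19 genes were CAST ASE genes and 1, Chp1, was an S129 ASE gene, with a median of 80.0% CAST, while Mga itself was at 49.6%. Over all tested records 8.33% were CAST ASE records. In windows of the same size around the other 9 members, the share of ASE genes toward either allele ran from 0 to 16.7%, with 1 of 19 genes around Mxd3, 1 of 15 around Mxd4, 1 of 7 around Max and 4 of 33 around Mlx, against 73.7% around Mga. Tyro3, a receptor tyrosine kinase gene and its nearest neighbour below, had 377 CAST and 101 S129 reads (78.9%, 74.9 to 82.4), and Mapkbp1, 12.1 kb above, had 247 CAST and 22 S129 reads (91.8%, 87.9 to 94.8). The intervals of both lie above that of Mga and do not overlap it. On the lower side 3 consecutive genes next to Mga were CAST ASE genes, and on the upper side 5 were. Of the lower genes, Itpka rested on 1 variant, with 131 CAST and 0 S129 reads. Of the upper genes, Gm28042, a read-through transcript, shares reads with Jmjd7 and Pla2g4b, and Gm13999 overlaps the end of Mapkbp1 on the opposite strand. Each of these was counted as a separate gene among the 13. The non-reference base was on S129 at 30.1% of the variants of the 19 neighbours, against 65.6% in Mga. The part of this difference in the contrast was not tested.

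**Figure D5:**
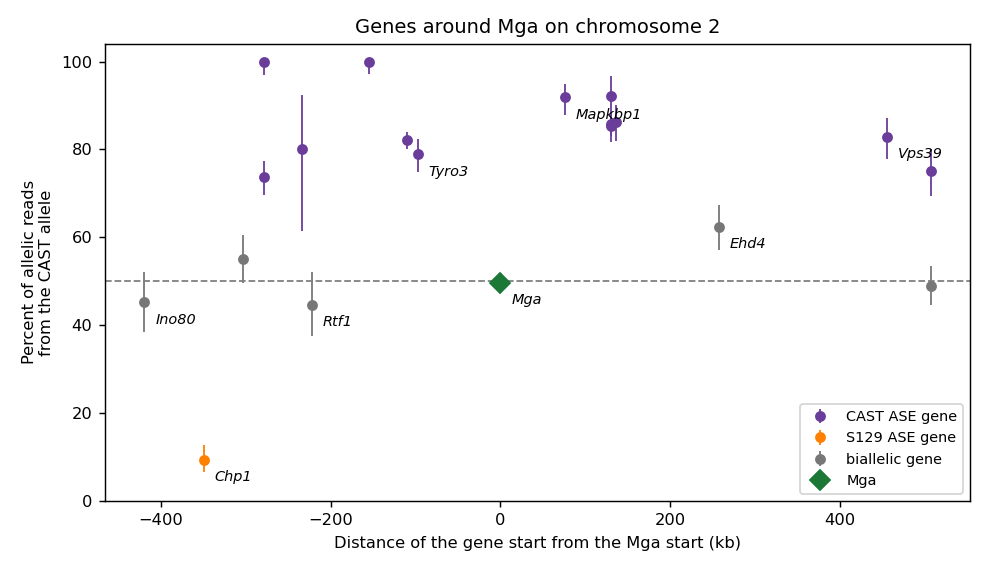
Percent of allelic reads from the CAST allele for Mga (diamond) and the 19 genes within 500 kb of it, edge to edge, that reached 1 TPM and 20 allelic reads, by distance of the gene start from that of Mga, with exact 95% intervals from counting error alone. The 13 CAST ASE genes lie above the dashed line of equal shares, and Mga, at 49.6%, lies on it.

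Other parts of the pathway were followed through lists of known partners and targets. Among the remaining MAX and MLX network genes, Mxd1, Mlxip, Mlxipl, Usf1, Usf2 and Tfap4, none of 8 records was ASE. Mlxip, which encodes MondoA, the partner of MLX, stood at 35.6% CAST, a log2 fold change of −0.86 (adjusted binomial p = 0.000296), and Usf1, an E-box factor, was the highest at 33.0 TPM with 1492 CAST and 1244 S129 reads. In the list of MYC cofactors and turnover factors, 3 of 37 records (8.11%) were ASE. Aurka, the kinase that stabilizes MYCN protein, showed 1454 CAST against 607 S129 reads, a log2 fold change of 1.26. The lncRNA record of Zbtb17, which encodes the MYC partner MIZ1, showed 31 CAST against 12 S129 reads, a log2 fold change of 1.37. The protein-coding record of Zbtb17 held 837 CAST and 447 S129 reads, a log2 fold change of 0.90, and was biallelic. S129 carried the non-reference base at 3 of the 4 variants of this lncRNA record and at 9 of the 15 of the coding record. Over all tested records this was so at 11.1% of variants, and its part in the values of Zbtb17 was not tested. Cdk9, the elongation kinase, favored S129 with 21 CAST and 68 S129 reads (−1.70). Paf1, of the elongation complex of the same name, was the highest of this list at 79.4 TPM and was biallelic.

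For the SIN3 corepressor, used by MXD and MNT proteins, 2 of 18 records were ASE. Sap30, a SIN3 subunit, showed 83 CAST against 35 S129 reads, a log2 fold change of 1.25. The lncRNA record of Brms1l, another subunit, had 0 CAST and 186 S129 reads at 1 variant. This is at least 62-fold higher on S129 when 3 reads are taken for CAST over the pooled replicates. The protein-coding record of Brms1l, which contains that span, held 330 CAST and 621 S129 reads at 26 variants (34.7% CAST) and was biallelic. The highest level in this list was 41.5 TPM, in the lncRNA record of Hdac2. The protein-coding record of Hdac2 stood at 19.3 TPM, and the highest tested protein-coding record was that of Sap30, at 39.2 TPM. Of the Polycomb complex that holds MGA, 1 of 12 records was ASE: E2f6, its E2F subunit, had 100 CAST and 213 S129 reads (−1.09), and S129 carried the non-reference base at 8 of its 11 variants. The highest level in this list was 93.8 TPM, in the lncRNA record of Rnf2, the catalytic subunit of the complex. The protein-coding record of Rnf2 stood at 18.1 TPM, and the highest tested protein-coding record was that of Cbx1, at 31.1 TPM.

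Of 42 records of well-known MYC target genes, 4 were CAST and 1 was S129. The CAST records were those of Nme2, a nucleoside diphosphate kinase (2642 CAST and 1179 S129 reads), Bop1, a ribosome biogenesis factor (1529 CAST and 740 S129 reads), Cdkn2b, the cell cycle inhibitor p15 (128 CAST and 35 S129 reads), and Ccnd1, cyclin D1 (1159 CAST and 400 S129 reads). The S129 record was the protein-coding one of Eif4a1, a translation initiation helicase, with 401 CAST and 990 S129 reads. The lncRNA record of Eif4a1, which lies inside it, had 69 CAST and 53 S129 reads (56.6% CAST, 47.3 to 65.5) and was biallelic. Npm1, nucleophosmin, held the highest level of the list at 1071 TPM in its lncRNA record, which stood at 52.5% CAST. The protein-coding record of Npm1 stood at 403 TPM and at 36.9% CAST (36.1 to 37.8), toward S129 but below the 2-fold minimum. The highest tested protein-coding record of the list was that of Ptma, at 609 TPM. The share of ASE records in these lists ran from 0 to 11.9%, against 14.1% of all tested records.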

How the data were processed

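Total RNA of F123 mESCs was sequenced in 2 replicates. The authors aligned the read pairs to mm10 (GRCm38.p6) with STAR (version 2.7.2c), supplied with Ensembl gene models and variants of F123, after quality control with FastQC, and removed duplicates with Picard. The deposited read counts per allele come from GATK ASEReadCounter, run by the authors at heterozygous variants in exons and introns, with a stated minimum of 20 reads per variant, and are summed over variants and over both replicates. For the deposited TPM values the authors took HTSeq counts (minimal alignment quality 10), scaled by transcript length and library size, for 1 transcript per gene and biotype. DESeq2 is also listed in the processing notes of the submitters, and its use was not traced here. Columns with the authors' own fold changes, p-values, allelic ratio and class were not used.

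From the counts, a two-sided exact binomial test of CAST against S129 reads was run per record, adjusted by Benjamini-Hochberg over all records with reads. Calls needed an adjusted p of at most 0.05, at least 2-fold and a TPM of at least 1. Shares carry exact Clopper-Pearson 95% intervals and log2 fold changes a standard error from the counts. Reads over more than 1 variant may enter several times, and these intervals cover counting error of independent reads only, since pooled replicates give no spread. The network records ranged over 12 to 3490 allelic reads (median 182). Promoters and their motifs came from RefSeq (GRCm38.p6) and exons from GENCODE M21, and all work was done in Python 3.11.15 with scipy 1.17.1, pandas 2.3.3, numpy 2.4.6 and matplotlib 3.10.9. The test was checked on simulated data.

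Named were all records of the members, of each list the ASE records and the highest TPM, the nearest gene on each side of a member, and Pvt1. The genes in the median and figure around Mga, and Prelid1, Gm10197 and Gm42846, which overlap members, were named after their values were seen. So were Mlxip, Cbx1, Ptma, Pdgfra and the further records of Brms1l, Eif4a1, Zbtb17, Rnf2, Hdac2, Npm1 and Thy1. Members and lists were chosen with earlier results of these data known. The comparison of parts of a gene, with its 2 alternatives, and the beta-binomial correlation of 0.001 were chosen after seeing the data. Alternatives changed the minimum of reads, the fold and TPM minimums, the assumed spread between reads, the null share, the added reads and the records counted.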

Additional observations from a re-analysis of the deposited data

How the results depend on the processing

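The count of ASE network records, 1 as reported, became 0 with at least 100 allelic reads, with a beta-binomial correlation of 0.05 and with protein-coding records only, 5 with a 1.5-fold minimum (Mycn and Mycl in both records, and Myc) and 7 with no fold minimum. Over all tested records the count of 2249 became 1444 with at least 100 reads, 487 with the correlation of 0.05, 4104 with the 1.5-fold minimum, 7701 with no fold minimum, 1117 with a TPM of at least 5 and 1305 with protein-coding records only. In the other pathway lists the count of 11 became 1 with the correlation of 0.05, 28 with the 1.5-fold minimum and 69 with no fold minimum. The number of genes whose parts differ, 834, became 180 in a normal test with a correlation of 0.01 between reads of a part. The call of the Mycn lncRNA record was lost at the correlation of 0.05 (adjusted p = 0.470, with a range from 0.000800 to 0.470 over its alternatives). The alternatives change filters, thresholds and p-values, or add 1 read to both alleles, and none of these can turn the direction of a record. The correlations are assumed values, and the true spread between replicates or variants was not measured. Depth was lowest in the Mxd4 protein-coding record (12 reads) and the Mycn lncRNA record (41 reads). No paired analysis was possible because all samples form 1 group and both replicates are pooled in 1 deposited column, and for the same reason no replicate could be left out.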
